A study of Mustela putorius furo with 10 samples.

Results

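Inflammatory cytokines are secreted proteins by which leukocytes start, spread and limit inflammation. A set of 10 genes was taken by name, namely IL1A, IL1B, IL18, IL1RN, TNF, IL6, CXCL8, IL15, IL10 and TGFB1, and each was looked up on the arrays through the ferret gene name that RefSeq gives to the accession a probe was designed on. Of these 10 genes, 7 were matched and 3 (IL1B, IL6 and CXCL8) were not, so the latter are not analysed here. All 7 matched genes passed the filter on dim probes, which asked for Cy3 well above background on at least 4 of 10 arrays, and they are 7 of the 26303 genes or unnamed accessions tested.

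The study asked how cold changes gene expression in peripheral blood mononuclear cells (PBMC), the lymphocytes and monocytes that a density gradient separates from blood. The control group consisted of 6 male ferrets (Mustela putorius furo) aged 3 months that were kept at 22 °C, and the cold group of 4 males of the same age that had spent 1 week at 4 °C. Each array compared the total RNA of 1 ferret (Cy3) with a common pool of PBMC mixed with other tissues (Cy5). The cold group was housed individually, no such statement is made for the control group, and PBMC of only part of either group went onto arrays, so that temperature, housing and the choice of animals cannot be told apart.

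IL-1α, IL-1β and IL-18 belong to the IL-1 family and activate NF-κB in cells that carry their receptors. IL-1β and IL-18 are made as inactive precursors that caspase-1 cuts within an inflammasome, while the antagonist encoded by IL1RN occupies the IL-1 receptor without signalling. TNF, IL-6 and CXCL8 (a neutrophil attractant) are released early by activated monocytes, IL-15 sustains NK cells and memory T cells, and IL-10 and TGF-β1 restrain immune responses.

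The fraction of spots well above background was 50.4 to 63.5% for Cy3 on control arrays and 58.0 to 61.1% on cold arrays, and it was 27.0 to 54.9% and 40.5 to 64.0% for Cy5. Leukocyte PTPRC, T cell CD3E and monocyte CD14 were above background on 10 of 10 arrays, and so was the granulocyte receptor gene CSF3R. The platelet gene PF4 was not matched. Replicates are single ferrets. The limma p-values set the difference between groups against the spread of the 10 animals within their groups, which limma moderates over all genes tested.

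All values below are log2 ratios of Cy3 to Cy5 after normalization within each array, unless Cy3 alone is named, and a change is the mean of the cold arrays minus the mean of the control arrays. The largest changes of the ratio among the cytokine genes were those of IL18, IL1RN and TGFB1, which were 1.67-, 1.41- and 1.34-fold higher in the cold group, but lower in it when arrays were centred on their median (-0.18, -0.52 and -0.18). No cytokine gene passed an adjusted p of 0.05 (limma with Benjamini-Hochberg adjustment), and neither did any other gene tested, 0% of 26303. The methods' threshold, an unadjusted p under 0.01, was passed by 0 of 7 cytokine genes and by 8.64% of all genes tested. An unadjusted p under 0.05 was reached by 3 of 7, all higher in cold, beside 24.7% of all genes in either direction and 12.2% in that direction. These were IL18, IL1RN and TGFB1, whose unadjusted limma p without Cold replicate 3 was 0.0505, 0.0771 and 0.0531. With median-centred arrays 0 of 7 had a p under 0.05, and 7827 of all genes had. In the main reading the mean was higher in cold for 6 of 7 cytokine genes and for 48% of all genes, and with arrays centred on their median for 3 of 7 and for 22.9% of all genes. The median change was 0.23 against -0.01 over all genes, 0.11 without Cold replicate 3, and with median-centred arrays -0.15 against -0.43 over all genes. The groups did not separate fully for any of the 7 genes, while they did for 5.22% of all genes (3.07% with all cold arrays higher).

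**Figure D1:**
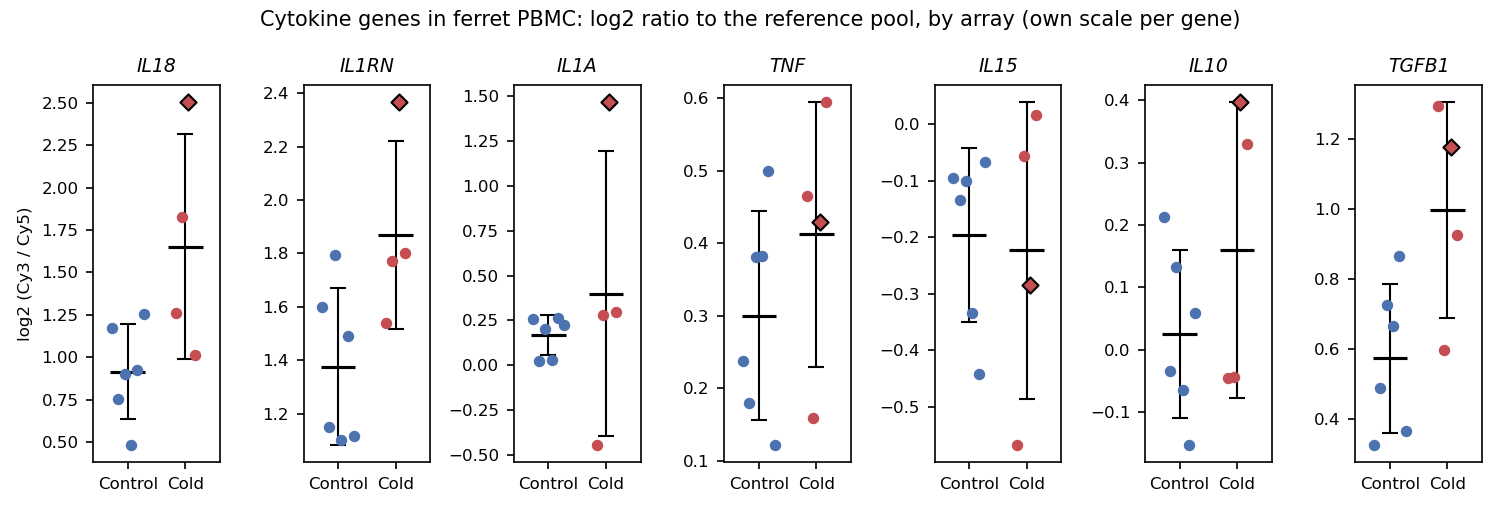
Log2 ratio of Cy3 (ferret PBMC RNA) to Cy5 (reference pool) of the 7 cytokine genes on each of 6 control and 4 cold arrays, with group mean and SD as black lines and Cold replicate 3 as a diamond. Each gene has its own vertical scale, and Cold replicate 3 is the highest array for IL18 (2.51), IL1RN (2.37), IL1A (1.47) and IL10 (0.40).

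IL18 (XM_004749823) was measured by 4 probes, with raw Cy3 signals of 5620 to 28951 above a local background of 45.5 to 63.5. Its ratio on the control arrays had a lowest value of 0.48, a median of 0.91 and a highest value of 1.25, and on cold arrays 1 to 4 it was 1.26, 1.82, 2.51 and 1.01. Cold arrays 1, 2 and 3 lay above every control array, array 1 only just, and array 4 lay within the control range. Control ferrets averaged 0.91 ± 0.28 (SD, n = 6) and cold ferrets 1.65 ± 0.66 (SD, n = 4). The change was 0.74 (SE 0.26, 95% interval 0.16 to 1.31), with an adjusted p of 0.132 in limma. An exact two-sided permutation test over the 210 splits of the arrays gave p = 0.0238, where the smallest possible p is 0.00476. All 4 probes were higher in cold, by 0.71 to 0.76. Without Cold replicate 3 the change was 0.45 with an adjusted p of 0.293, in the authors' deposited value table it was 0.27, and over all alternatives tried the adjusted p ran from 0.101 to 0.816.

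IL1RN was covered by 12 probes on 3 target sequences (XM_004742399, XM_004742400 and XM_004742401), with raw Cy3 signals of 12496 to 58040 and no saturated spot. On the control arrays its ratio had a lowest value of 1.10, a median of 1.32 and a highest value of 1.79, and on cold arrays 1 to 4 it was 1.54, 1.77, 2.37 and 1.80. Cold arrays 3 and 4 exceeded every control array, array 4 by very little, and cold arrays 1 and 2 fell in the upper part of the control range. Control ferrets averaged 1.38 ± 0.29 (SD, n = 6) and cold ferrets 1.87 ± 0.35 (SD, n = 4), a change of 0.49 (SE 0.18, 95% interval 0.09 to 0.90) with a limma adjusted p of 0.142. The exact two-sided permutation p was 0.0429. All 12 probes were higher in cold, by 0.26 to 0.73, and the 3 sequences, in the order given, had changes of 0.51, 0.45 and 0.51. Without Cold replicate 3 the change was 0.33, and in the authors' deposited value table it was 0.00.

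IL1A (XM_004771000), the gene of the agonist that the IL1RN product opposes, was dim. Its raw Cy3 signal ran from 117 to 605 over a local background of 48.5 to 64.8, 2 of 4 probes were kept, and Cy3 was above background on 3 control and 3 cold arrays and Cy5 on 1 array. The control ratios had a lowest value of 0.02, a median of 0.22 and a highest value of 0.26. On cold arrays 1 to 4 the IL1A ratio was -0.45, 0.28, 1.47 and 0.29. The cold arrays thus lay on both sides of a narrow control range, with array 1 below it, arrays 2 and 4 just above it and array 3 far above it. The change was 0.23 (SE 0.28, 95% interval -0.38 to 0.84, limma adjusted p = 0.639), without Cold replicate 3 it was -0.12, and in the authors' deposited value table it was 0.91.

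TNF (XM_004781005) had raw Cy3 signals of 228 to 380, above background on 10 of 10 arrays, while the reference channel was above background on 3. Its control ratios had a lowest value of 0.12, a median of 0.31 and a highest value of 0.50, and on cold arrays 1 to 4 the ratio was 0.46, 0.16, 0.43 and 0.59. Only cold array 4 exceeded the control range. The change was 0.11 (SE 0.11, 95% interval -0.12 to 0.34) with a limma adjusted p of 0.542, and it was 0.05 to 0.20 when single arrays were left out. Among 8340 named genes compared, those whose centred ratios lay nearest to TNF over the 10 arrays were QRICH1, PKNOX1 and CAB39L. Their root mean square differences were 0.0543, 0.0640 and 0.0708. As these genes were picked for the smallest differences, they lie below the median of 0.254 over all genes compared by selection. The SD of the TNF ratio over the 10 arrays was itself only 0.161. These arrays share their samples and normalization, and each of the 3 genes changed little between groups (0.06, 0.13 and 0.09). In the deposited value table the TNF change was 0.23.

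IL15 was covered by 3 target sequences (XM_004768447, XM_004768450 and XM_004768453), of whose 12 probes 10 were kept, with raw Cy3 signals of 164 to 330. Cy3 was above background in all kept probes on 4 arrays, and Cy5 in any of them on 8. On the control arrays the IL15 ratio had a lowest value of -0.44, a median of -0.12 and a highest value of -0.07, and on cold arrays 1 to 4 it was -0.57, -0.06, -0.28 and 0.02. Cold array 1 lay below every control array, arrays 2 and 4 above, and array 3 among them. The change was -0.03 (SE 0.13, 95% interval -0.30 to 0.25, limma adjusted p = 0.916), and 4 of 10 probes were higher in cold. In the deposited value table the IL15 change was 0.53.

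IL10 (XM_004756192) was also dim, with raw Cy3 signals of 134 to 238, above background in any probe on 5 of 6 control and 4 of 4 cold arrays. All of its probes were above background on 6 arrays, and Cy5 was above background in any probe on 4. Its control ratios had a lowest value of -0.15, a median of 0.01 and a highest value of 0.21, and on cold arrays 1 to 4 the ratio was -0.05, -0.04, 0.40 and 0.33. Cold arrays 3 and 4 were above every control array and arrays 1 and 2 within the control range. The change was 0.13 (SE 0.11, 95% interval -0.12 to 0.39, limma adjusted p = 0.499), and 4 of 4 probes were higher in cold. Without Cold replicate 3 the IL10 change was 0.054, and in the authors' deposited value table it was 0.68.

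TGFB1 (XM_004776066) had raw Cy3 signals of 787 to 1320. Its control ratios had a lowest value of 0.32, a median of 0.58 and a highest value of 0.86, and on cold arrays 1 to 4 the TGFB1 ratio was 1.29, 0.60, 1.18 and 0.92. Cold arrays 1, 3 and 4 were above every control array, and array 2 lay in the middle of the control range. Control ferrets averaged 0.57 ± 0.21 (SD, n = 6) and cold ferrets 1.00 ± 0.31 (SD, n = 4), a change of 0.43 (SE 0.15, 95% interval 0.09 to 0.76). The limma adjusted p was 0.133 and the exact two-sided permutation p 0.0429. Leaving out Cold replicate 2, the array that overlapped, gave 0.56 with an adjusted p of 0.0497, the only alternative under which a cytokine gene passed, with a range of 0.0497 to 0.997 over the alternatives for TGFB1. In that setting 1272 of 26303 genes passed. In the processed signals of the Agilent software the TGFB1 change was 0.00, and in the authors' deposited value table it was 0.20.

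The same genes were then read from the Cy3 channel alone, without the reference pool, after quantile normalization between arrays. In that channel 5 of 7 cytokine genes were higher in cold (42.9% of all genes were), and 4 of 7 had an unadjusted p under 0.05 (24.8% of all genes in either direction). These were IL18, IL1RN, IL1A and IL10, whose unadjusted limma p without Cold replicate 3 was 0.112, 0.0551, 0.175 and 0.113. With all arrays an unadjusted p under 0.01 was reached by 0 of 7 (9.84% of all genes), and an adjusted p of 0.05 by 0 of 7 (2.82% of all genes). No cytokine gene had all cold arrays above all control arrays in Cy3 alone, as 3.57% of all genes had. The median change of the 7 genes was 0.41, against -0.04 over all genes. Both readings were higher in cold for 4 of 7 genes (IL18, IL1RN, IL1A and IL10) and for 31.2% of all genes. IL18 and IL1RN were the 2 genes with an unadjusted p under 0.05 and a higher mean in both readings, as were 6.80% of all genes. Without Cold replicate 3 neither gene had an unadjusted limma p under 0.05 in either reading.

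**Figure D2:**
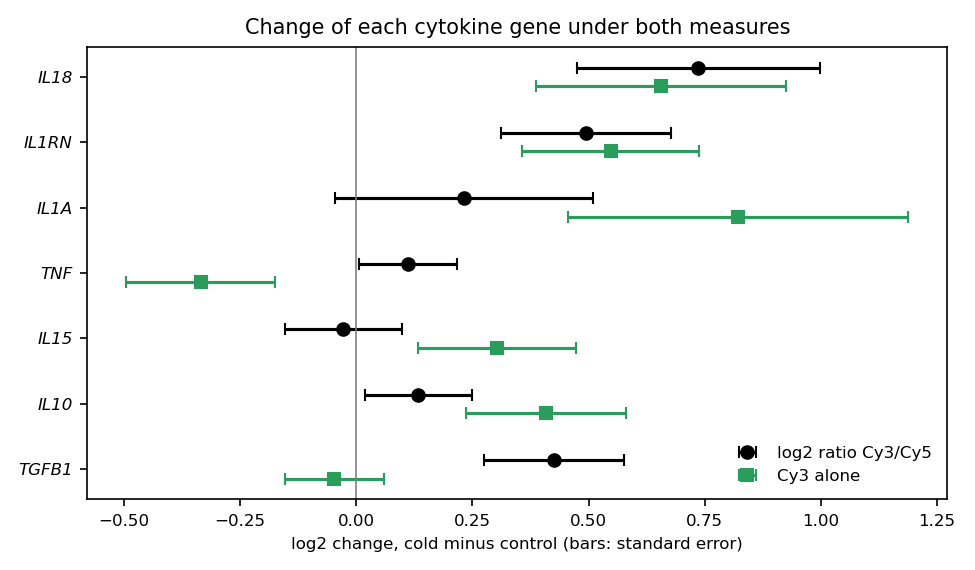
Change of each cytokine gene between cold and control arrays on the log2 scale, with standard errors, from the log2 ratio (black circles) and from Cy3 alone (green squares). IL18 (0.74 and 0.66) and IL1RN (0.49 and 0.55) have like values in both readings, while TGFB1 (0.43 and -0.05) and TNF (0.11 and -0.33) do not.

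The changes of IL1RN, IL1A and IL10 were larger in Cy3 alone than in the ratio, and that of IL18 was slightly smaller. IL18 changed by 0.66 (SE 0.27, limma adjusted p = 0.165), with Cy3 values of 12.21 to 13.17 in control and of 13.09, 13.15, 14.35 and 13.06 on cold arrays 1 to 4, so that only Cold replicate 3 stood clear of the controls. IL1RN changed by 0.55 (SE 0.19, limma adjusted p = 0.117), and 3 of 4 cold arrays were above every control array. IL1A changed by 0.82 (SE 0.37, limma adjusted p = 0.192), with control values of 6.59 to 7.55 and cold values of 6.76, 8.38, 9.02 and 7.59. The cold IL1A values thus spanned a range of their own, from within the controls to far above them. IL10 changed by 0.41 (SE 0.17, limma adjusted p = 0.174). Without Cold replicate 3 the Cy3 changes of IL18, IL1RN, IL1A and IL10 were 0.34, 0.38, 0.46 and 0.32.

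The remaining 3 genes had another sign in this channel than in the ratio. TGFB1 changed by -0.05 (SE 0.11, limma adjusted p = 0.820), and 1 of 4 probes was higher in cold against 4 of 4 in the ratio. Its Cy3 values were 9.73 to 10.17 in control and 9.90, 9.70, 10.10 and 9.93 on cold arrays 1 to 4, so that no cold array exceeded the controls and array 2 was just below them. TNF changed by -0.33 (SE 0.16, limma adjusted p = 0.220), with 0 of 4 probes higher in cold. IL15 changed by 0.30 (SE 0.17, limma adjusted p = 0.290), with 10 of 10 probes higher in cold. The difference between both readings was not itself tested.

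**Figure D3:**
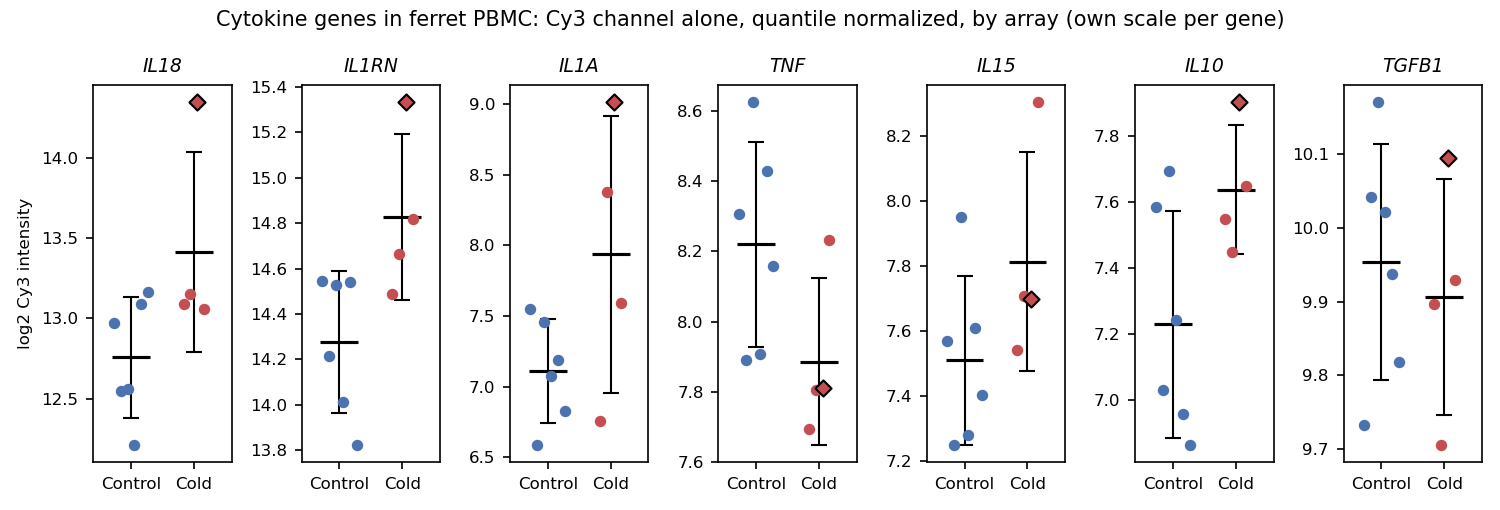
Log2 Cy3 intensity of the 7 cytokine genes after quantile normalization on each of 6 control and 4 cold arrays, with group mean and SD as black lines, Cold replicate 3 as a diamond and an own scale per gene. For TGFB1, whose ratio was 0.43 higher in cold, 3 cold arrays lie within the control range and Cold replicate 2 (9.70) just below it.

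In the Cy5 channel alone, which holds the same pool on all arrays, the change was 0.16 (SE 0.07) for IL1RN and 0.05 (SE 0.12) for IL18, the cytokine genes with Cy5 above background on 10 of 10 arrays. When loess was replaced by centring each array on its own median, the median change over all genes was -0.43. Relative to that shift, the change was 0.25 for IL18, 0.25 for TGFB1, 0.27 for TNF, 1.31 for IL1A, 0.86 for IL10 and 0.62 for IL15, and -0.10 for IL1RN.

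The slide carried 2 array positions, and both groups occupied both. Within the first and the second position, the change was 0.63 and 0.85 for IL18, 0.41 and 0.44 for IL1RN, and 0.48 and 0.26 for TGFB1. In the ratio these 3 genes were higher in cold at either position, while in Cy3 alone TGFB1 was lower at both (-0.10 and -0.04). The second position held only Control replicates 3 and 5 and Cold replicates 3 and 4. For IL1A the change of the ratio was -0.22 and 0.65, for IL10 -0.09 and 0.37, for IL15 -0.15 and 0.14, and for TNF 0.08 and 0.07.

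Receptors, processing enzymes and signalling genes of these cytokines were taken from 6 lists of 70 genes, of which 39 were matched and 37 tested. Of these 37, 24 were higher and 13 lower in cold, with a median change of 0.08, and 0 passed an adjusted p of 0.05. In Cy3 alone 19 were higher and 18 lower, with a median of 0.01. At an unadjusted p under 0.01, 3 were higher (IL1R2, NLRP3 and TRADD) and 2 lower (IL6ST and IL2RG), beside 5.21% and 3.43% of all genes tested. Without Cold replicate 3 that count of 5 was 1, while the count over all genes went from 2272 to 1275. It was 3 without Control replicate 4 (2036 of all genes) or Control replicate 6 (1815). In Cy3 alone 4 genes of the lists were higher and 1 lower at that threshold, beside 5.48% and 4.36% of all genes. A limma adjusted p of 0.05 was passed in Cy3 alone by 3 of the 37 (2 higher and 1 lower), beside 2.82% of all genes.

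**Figure D4:**
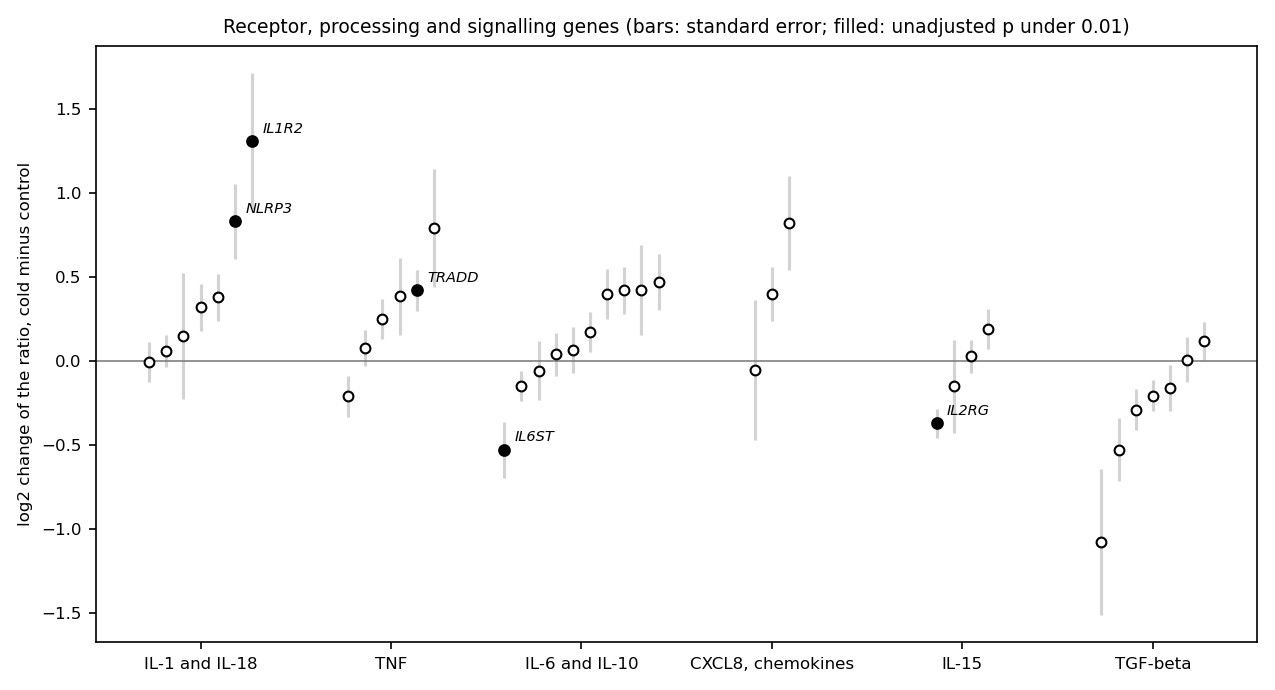
Change of the log2 ratio between cold and control arrays, with standard error, for 37 receptor, processing and signalling genes in 6 lists ordered by size within each list. Filled points are the 5 genes with an unadjusted p under 0.01, from IL1R2 at 1.31 to IL6ST at -0.53.

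In the list on IL-1 and IL-18, 6 of 7 genes tested were higher in cold, with a median change of 0.32. IL1R2 encodes a decoy receptor that binds IL-1 without signalling. Its ratio had a lowest value of -2.69, a median of -1.95 and a highest value of -1.34 in control, and it was -1.75, -0.47, 0.53 and -1.17 on cold arrays 1 to 4. Arrays 2, 3 and 4 were above every control array and array 1 was within the range. The IL1R2 change was 1.31 (SE 0.41, limma adjusted p = 0.109), and in Cy3 alone it was 2.18 with an adjusted p of 0.0345.

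NLRP3 encodes the sensor of the inflammasome that activates caspase-1. Its ratio had a lowest value of 0.33, a median of 0.65 and a highest value of 1.28 in control and was 1.90, 1.00, 1.99 and 1.20 on cold arrays 1 to 4. Cold arrays 1 and 3 were above every control array. The NLRP3 change was 0.83 (SE 0.23, limma adjusted p = 0.0885), and in Cy3 alone 0.72. The signalling receptor gene IL1R1 changed by 0.15 in the ratio (SE 0.37) and by 1.23 in Cy3 alone (limma adjusted p = 0.0345). The receptor genes IL1RAP and IL18R1 were not matched.

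For TNF, 5 of 6 list genes tested were higher in cold, with a median change of 0.32. TRADD, the adaptor of the TNF receptor, had control ratios with a lowest value of 0.28, a median of 0.55 and a highest value of 0.77, and 0.74, 1.15, 1.18 and 0.85 on cold arrays 1 to 4. Cold arrays 2, 3 and 4 were above every control array, and the TRADD change was 0.42 (SE 0.12, limma adjusted p = 0.100), and in Cy3 alone 0.28. The receptor gene TNFRSF1A changed by 0.39 (SE 0.23, limma adjusted p = 0.316).

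Of 10 genes tested for IL-6 and IL-10, 7 were higher and 3 lower in cold, with a median change of 0.12. IL6ST encodes gp130, the signalling chain shared by receptors of the IL-6 family. Its ratio had a lowest value of -1.04, a median of -0.47 and a highest value of -0.02 in control, and it was -0.96, -0.99, -1.03 and -1.07 on cold arrays 1 to 4. The cold arrays were tightly grouped at the low end of a wide control range, with array 4 just below it. The IL6ST change was -0.53 (SE 0.17, limma adjusted p = 0.111), and in Cy3 alone it was -0.45 with an adjusted p of 0.313. IL6R, the binding chain, changed by -0.06 (SE 0.18), and IL10RA, the binding chain for IL-10, by 0.40 (SE 0.15, limma adjusted p = 0.141) and in Cy3 alone by 0.17.

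In the list on CXCL8 receptors and other chemokine genes, 3 genes were tested and 2 were higher in cold. CXCR2, a receptor for CXCL8 that neutrophils carry, had control ratios with a lowest value of 0.42, a median of 0.85 and a highest value of 1.63, and 1.94, 1.04, 2.39 and 1.56 on cold arrays 1 to 4. Cold arrays 1 and 3 were above every control array. The CXCR2 change was 0.82 (SE 0.28, limma adjusted p = 0.126), and in Cy3 alone 0.44. CXCR1 was not matched.

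For IL-15, 2 of 4 list genes were higher and 2 lower in cold, and in Cy3 alone 4 of 4 were lower. IL2RG encodes the common gamma chain, which the receptors for IL-2, IL-15 and related cytokines share. Its ratio had a lowest value of 0.16, a median of 0.29 and a highest value of 0.47 in control, and it was -0.01, -0.05, -0.25 and 0.02 on cold arrays 1 to 4. All 4 cold arrays were below all 6 control arrays, as for 2.15% of all genes tested. The IL2RG change was -0.37 (SE 0.08, limma adjusted p = 0.0736), the exact two-sided permutation p was 0.00476, the smallest that the design allows, and in Cy3 alone the change was -0.72 with an adjusted p of 0.0489. IL2RB, the chain that IL2RG pairs with in the IL-15 receptor, changed by -0.15 (SE 0.27), and IL15RA was not matched.

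In the list on TGF-β activation, receptors and signalling, 7 genes were tested. Of these, 5 were lower and 2 higher in cold, the median change was -0.20, and none had an unadjusted p under 0.01. The receptor genes TGFBR1 and TGFBR2 were not matched.

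Markers of blood cell types were read on the same arrays. The mean over the 7 cytokine genes, less the control mean, was -0.13 to 0.13 on control arrays and 0.05, 0.20, 0.70 and 0.26 on cold arrays 1 to 4. The mean of 7 monocyte markers was -0.26 to 0.21 in control and 0.33, 0.55, 0.91 and -0.18 in cold. The mean of 9 neutrophil markers was -0.39 to 0.27 in control and 0.96, 0.61, 0.97 and 0.70 in cold. Cold array 3 was thus highest in the cytokine, monocyte and neutrophil means. Cold array 4 lay above the controls in cytokine genes and within the control range in monocyte markers, where MS4A7 was far below the controls (-1.09 against a control mean of 0.87).

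Of the monocyte list, 7 of 12 markers were tested, 6 were higher in cold, and CD14 (0.66) and VCAN (1.29) had an unadjusted limma p under 0.01. Of the neutrophil list, 9 of 14 were tested, 9 were higher, and 5 had an unadjusted p under 0.01, with a median change of 0.81. These 5 were S100A8, S100A9, LCN2, MPO and PADI4. The changes were not uniform, as CSF3R changed by 0.40 (SE 0.33) and by 0.05 in Cy3 alone, and MMP9 by 0.19 (SE 0.34). Over all genes tested, 48% were higher in cold and 5.21% were higher with an unadjusted p under 0.01. CXCR2 stands in both this list and the chemokine list. Of 8 T cell markers tested, 7 were lower, with a median of -0.50 and a mean over the list of -0.17 to 0.12 in control and -0.15, -0.24, -0.96 and -0.24 in cold. Cold array 3, the highest in cytokine genes, was the lowest in T cell markers.

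**Figure D5:**
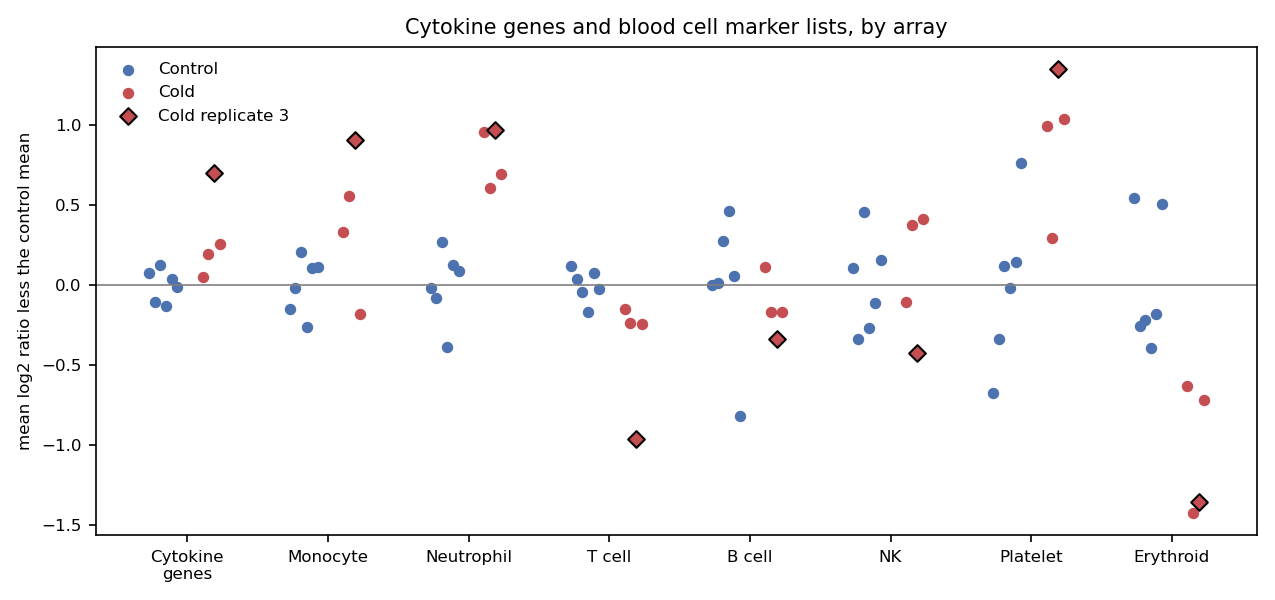
Mean log2 ratio of each gene list, less its mean over the control arrays, for the cytokine genes and 7 lists of blood cell markers on each of 6 control and 4 cold arrays, with Cold replicate 3 as a diamond. On the cold arrays the cytokine mean was 0.05 to 0.70, with the highest value on the array that also had the highest monocyte and the lowest T cell mean.

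Platelet markers were higher in cold for 6 of 6 tested, with a median of 0.87, and erythroid markers were lower for 4 of 4, with a median of -0.74. B cell markers were lower for 5 of 6 (median -0.08) and NK cell markers higher for 4 of 4 (median 0.08). In Cy3 alone B cell markers were lower for 6 of 6 (median -0.49), and NK cell markers were higher for 2 and lower for 2 (median -0.01). T cell markers were lower for 8 of 8 in Cy3 alone (median -0.70) and erythroid markers for 4 of 4 (median -1.73), while the median was 1.02 for platelet, 1.08 for neutrophil and 0.47 for monocyte markers. The part of these marker shifts in the cytokine values was not tested, and in bulk RNA a change in the number of cells of a type and a change in RNA per cell cannot be told apart.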

How the data were processed

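PBMC RNA of 6 control and 4 cold ferrets was hybridized to custom 2-colour Agilent arrays, 1 per ferret. The authors deposited spot intensities from Feature Extraction 10.7.3.1, and log2 values for each target sequence, in a table whose per-array constants are not explained in the sources used here. Median intensities were background-corrected by normexp (offset 50) and normalized by loess (span 0.3, 4 iterations) in limma 3.58.1 under R 4.3.3. Outlier spots, control spots and 15 custom sequences were left out. Spots were averaged per probe and probes per gene. Dim probes were dropped unless, on 4 or more arrays, a fraction of 0.5 or more of their spots had a Cy3 signal that the software called well above background. Of 45328 target sequences, 21104 were named through RefSeq (ASM1176430v1.1), and 2 genes with missing values were left out.

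Groups were compared by limma (lmFit, eBayes, Benjamini-Hochberg adjustment over 26303 genes) and by exact permutation for single genes. The arrays lay on 10 slides, scanned on 1 day, so slide could not be fitted. Their number limits the precision. The cytokine genes and gene lists were chosen with earlier results of these data known. Named genes were the 10 cytokine genes, list genes with an unadjusted p under 0.01 (at most 4 per list), main receptor chains, and the 3 genes nearest to IL1B, TNF and CXCL8 where tested. The test was checked on simulated data in which genes varied independently. The changes planted there were larger than those of the cytokine genes. Alternatives covered intensity columns, background, normalization, Cy3 alone, the deposited table, filters, probe summary, single target sequences, the methods' t-test, array weights, slide position, replicate number and single arrays. Readings that needed both channels above background, Cy3 without Cold replicate 3, and single slide positions were added after seeing the data.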

Additional observations from a re-analysis of the deposited data

How the results depend on the processing

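With arrays centred on their median the change reversed for IL18 (-0.18), IL1RN (-0.52), TGFB1 (-0.18), TNF (-0.15) and IL15 (0.19), the median of the cytokine genes was -0.15 (all genes -0.43) and 1 list gene passed an unadjusted p of 0.01 in place of 5 (1163 of all genes in place of 2272). In Cy3 alone it reversed for TGFB1 (-0.047), TNF (-0.33) and IL15 (0.30), also without Cold replicate 3 (-0.11, -0.31 and 0.34), and the median was 0.41. The software's processed signals gave -0.17 for TNF, 0.18 for IL15 and 0.00 for TGFB1. IL15 also turned without background subtraction (0.0097), in the deposited table (0.53), in 1 target sequence alone (0.013) and without Cold replicate 1 (0.088). IL1A turned without Cold replicate 3, and ranged from -0.12 to 0.51 when single arrays were left out. The cause was not tested.

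The median was 0.43 over the 5 cytokine genes with Cy3 above background on all 10 arrays and 0.46 over the 4 with both channels above background, where fewer genes were left. Leaving out single arrays gave a median of 0.11 to 0.33, 0 to 1 cytokine genes at an adjusted p of 0.05 (TGFB1, 0.0497, without Cold replicate 2) and 0 to 1 at an unadjusted p of 0.01. The latter was IL1RN without Control replicate 3, TGFB1 without Control replicate 5 or Cold replicate 2, and IL18 without Cold replicate 4. The list genes at that threshold were then 1 to 7 (1275 to 3386 of all genes, 2272 with all arrays), and 3 in the deposited table (1093 of all genes), 3 without the filter (2580), 1 by the methods' t-test (1726) and 3 in Cy3 alone without Cold replicate 3 (1609). With target sequences as features, 9 sequences of list genes passed (2785 of 32400 sequences), and a gene can have several.

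Control and cold samples of the same number did not all deviate together (correlations of -0.30, 0.54, 0.10 and -0.19), and 0 of 4 cold arrays correlated best with their own number. With the replicate block 0 cytokine genes passed the adjusted threshold, the median was 0.27 and 6 list genes had an unadjusted p under 0.01 (2459 of all genes). IL18 was then 0.82 and IL1RN 0.46.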

Other observations

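Several list genes lay between an unadjusted limma p of 0.01 and 0.05, so that 17 of 37 had a p under 0.05 (11 higher and 6 lower in cold) beside 24.7% of all genes tested. The genes described here were chosen after their values were seen. The lower genes included 4 of the TGF-β list, namely SKIL, a SMAD corepressor gene (-0.53, SE 0.19), the coreceptor gene TGFBR3 (-1.08, SE 0.44), LRRC32, whose product holds latent TGF-β on the cell surface (-0.29, SE 0.12), and the signal transducer gene SMAD2 (-0.20, SE 0.09). In Cy3 alone their changes were smaller, -0.29 for SKIL, -0.14 for TGFBR3, -0.17 for LRRC32 and -0.11 for SMAD2, and none had an unadjusted p under 0.05. The JAK2 kinase gene, which serves many cytokine receptors, had control ratios of -0.04 to 0.53 and cold ratios of 0.76, 0.37, 0.89 and 0.67, a change of 0.42 (SE 0.14, limma adjusted p = 0.118). SOCS3, a feedback inhibitor of cytokine receptors, had control ratios of 0.25 to 0.90 and cold ratios of 0.62, 1.33, 1.29 and 0.79, a change of 0.47 (SE 0.17, limma adjusted p = 0.133). TNFAIP3, whose product A20 dampens NF-κB, had control ratios of -0.24 to 0.80 and cold ratios of -0.40, 1.33, 1.62 and 1.11. Cold array 1 of TNFAIP3 was below every control array and the other cold arrays were above. CCR2, a monocyte chemokine receptor gene, had control ratios of 0.11 to 0.40 and cold ratios of 1.08, 0.38, 0.81 and 0.14. Cold arrays 1 and 3 of CCR2 were above every control array, and array 4 was within the control range, as it was for IL18. In Cy3 alone the change was 0.30 for JAK2 and 0.49 for SOCS3, with unadjusted limma p-values of 0.144 and 0.0854. TNFAIP3 (0.88) and CCR2 (0.39) kept an unadjusted p under 0.05 in that channel.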
